A study of Mus musculus with 36 samples.

Results

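The collagen and laminin genes of the mouse were followed through 18 groups of brain cells. They are the protein-coding genes whose symbol is Col or Lama, Lamb or Lamc followed by chain numbers, and 55 such genes were measured, 44 collagens and 11 laminins, of 25460 genes in all. RNA was sequenced from 36 libraries of C57/Bl6 mouse brain cells, which the labels call astrocytes in every group. Each of 5 populations labelled A, B, C, D and E, and a population labelled Neg, was taken from the olfactory bulb, the brainstem and the cortex, with 2 libraries per population and region. All groups share the strain, and the labels name no treatment, transgene, age or sex, nor how the populations were separated, nor what Neg stands for. The labels do not state whether the 2 libraries of a group stem from different animals. The p-values thus rest on the spread among deposited libraries alone, and that spread may be technical. Libraries were numbered within a group in deposited order.

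Collagens and laminins are the main structural proteins of extracellular matrix. Collagen chains wind around each other into helical rods that assemble into fibrils, beaded filaments or the networks of basement membranes, and fibril-associated collagens decorate the fibrils. A laminin joins an alpha, a beta and a gamma chain into a cross-shaped molecule, from which basement membranes are built and to which cells attach. In the brain these proteins lie mostly in the vessel wall, the meninges and the pial surface, and astrocyte endfeet and vascular cells both deposit laminins there. In the olfactory bulb, ensheathing glia wrap the axons that enter from the nose and face a basement membrane.

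Transcript levels were deposited as FPKM, a count of fragments scaled by transcript length and by the mapped fragments of the library, and were summed per gene. The collagen and laminin genes were weakly expressed. Together they held between 0.00527% of the nuclear FPKM assigned to genes in cortex D replicate 2 and 0.123% in olfactory bulb D replicate 2. Between 0 and 21 of them reached 1 FPKM in a library. On this per-length scale, the highest mean over the 36 libraries was that of Col11a1, a chain of the minor fibrillar collagen XI, at 4.52 FPKM. Col27a1, a fibrillar collagen of cartilage, followed at 4.32 FPKM. Lamc1, the gamma chain found in most laminins, averaged 3.90 FPKM, as did Col9a3, a chain of the fibril-associated collagen IX. Col16a1, another fibril-associated collagen, averaged 3.54 FPKM, and Col23a1, a collagen anchored in the cell membrane, 2.56 FPKM. The means of Lama2 at 2.41 FPKM, Lamb2 at 2.19, Col4a2 at 1.70, Lama4 at 1.57, Col1a2 at 1.40 and Col4a1 at 1.35 completed the 12 highest. Col11a1 and Col9a3 gave the highest single values, 31.2 FPKM in brainstem D replicate 2 and 24.1 FPKM in brainstem C replicate 1.

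**Figure D1:**
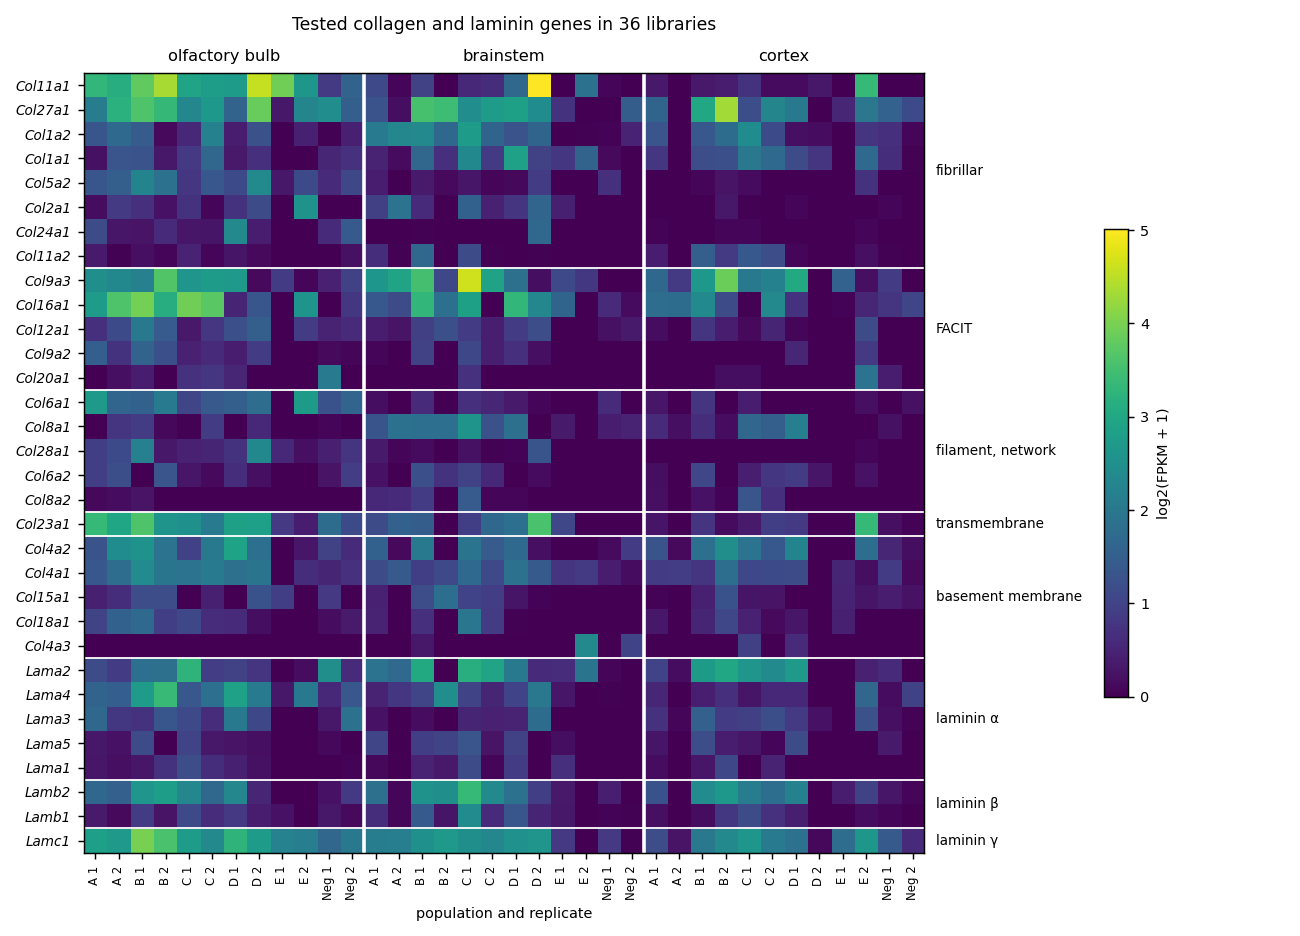
Levels of the tested collagen and laminin genes, as log2(FPKM + 1), in the 36 libraries. Rows are genes, columns are libraries ordered by region and population, and brighter cells are higher. Col11a1 is bright along the olfactory bulb columns of A to E, where it lies between 5.28 and 22.8 FPKM. Col23a1 is bright along those of A to D but low in E, at 0.788 and 0.301 FPKM.

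Chains that are assembled together were listed at unequal levels. Mean FPKM was 3.90 for Col9a3, against 0.348 for Col9a2 and 0.141 for Col9a1, which encode the other chains of collagen IX. For collagen VI, the filament collagen, the means were 0.917 FPKM for Col6a1, 0.364 for Col6a2 and 0.140 for Col6a3. Type I collagen was closer to even, with 1.40 FPKM for Col1a2 and 1.11 for Col1a1. Among the 12 genes with the highest means, 4 drew most of their level from transcripts far shorter than the longest one listed. A transcript of 1185 bases gave 77.3% of the mean of Col11a1, whose longest listed transcript has 7275 bases. A transcript of 834 bases gave 90.4% of Col16a1, where the longest has 5254 bases. The leading transcript held 61.8% of Col27a1 with 2337 of 7634 bases, and 57.7% of Lama2 with 2740 of 9713 bases. Levels of these 4 genes therefore speak mainly for the stretch that the short transcript covers, and values without the short transcripts are given where they end a call.

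Of the 55 genes, 32 reached 1 FPKM in at least 2 libraries and were tested, 24 collagens and 8 laminins. The other 23, 20 collagens and 3 laminins, averaged between 0.0107 and 0.256 FPKM. Among them 12 never reached 1 FPKM and 11 did so in 1 library, the highest single value being 6.56 FPKM for Col17a1, a membrane collagen of epithelia, in brainstem B replicate 2. A tested gene entered through the groups where it was high, so counts below describe the 32 tested genes and not all 55. Col5a2 and Col6a1 reached 1 FPKM in 9 and 11 libraries, all of them of the olfactory bulb. Tests used limma on log2(FPKM + 1) over all 13574 tested genes, differences are on that scale, and a gene was called at a Benjamini-Hochberg adjusted p under 0.05.

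The libraries were not of even quality. The depth read from coverage over FPKM was 0.0695 in brainstem E replicate 1 and 0.316 in olfactory bulb E replicate 1, against 1.17 to 4.08 in the others, and between 2104 and 10357 genes reached 1 FPKM. Markers of astrocytes, the labelled cell type, were found in every group, and all 12 were called higher in A to E than in Neg, with summed levels of 175 to 3010 FPKM in A to E and 35.2 to 450 FPKM in Neg. Markers of microglia summed to 717 FPKM or more in every B library. A pair of libraries stood apart from their region label, brainstem D replicate 2 and cortex E replicate 2, which carried genes of the olfactory bulb such as Npy, at 440 and 147 FPKM. Results between regions are therefore given with and without both libraries.

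In the olfactory bulb, chains of fibrillar, filament, fibril-associated and membrane collagens and 2 laminin chains were higher than in the cortex, led by Col11a1, Col23a1 and Lama4. Of the 32 tested, 10 were higher in the olfactory bulb than in the cortex over populations A to E and none was lower, or 31.2%, where 3.74% of all tested genes were called, 3.08% higher and 0.656% lower. Against the brainstem 5 were higher and 1 was lower, or 18.8%, where 5.19% of all tested genes were called, 4.19% higher and 1% lower. Both counts hold Col5a2 and Col6a1, which reached 1 FPKM in olfactory bulb libraries alone and so passed the filter only there. Col28a1, also in both, reached it in 4 libraries, of which only brainstem D replicate 2 was from another region. Col9a2, in the cortex count, reached it in 4 libraries, of which only brainstem C replicate 1 was from another region. These calls were thus in part set by the filter, and the shares are not free of it. The median difference of the 32 genes was 0.31 against the cortex and 0.28 against the brainstem, beside 0.14 and 0.19 for all tested genes. Without brainstem D replicate 2 and cortex E replicate 2 the counts were 10 and 7. By family, the genes higher than in the cortex were 2 of 8 fibrillar, 2 of 5 filament and network, 3 of 5 fibril-associated, 1 of 1 membrane and 0 of 5 basement membrane collagens, and 1 of 5 alpha, 0 of 2 beta and 1 of 1 gamma laminin chains. Fewer cells of a type and less RNA per cell cannot be told apart in such bulk libraries.

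**Figure D2:**
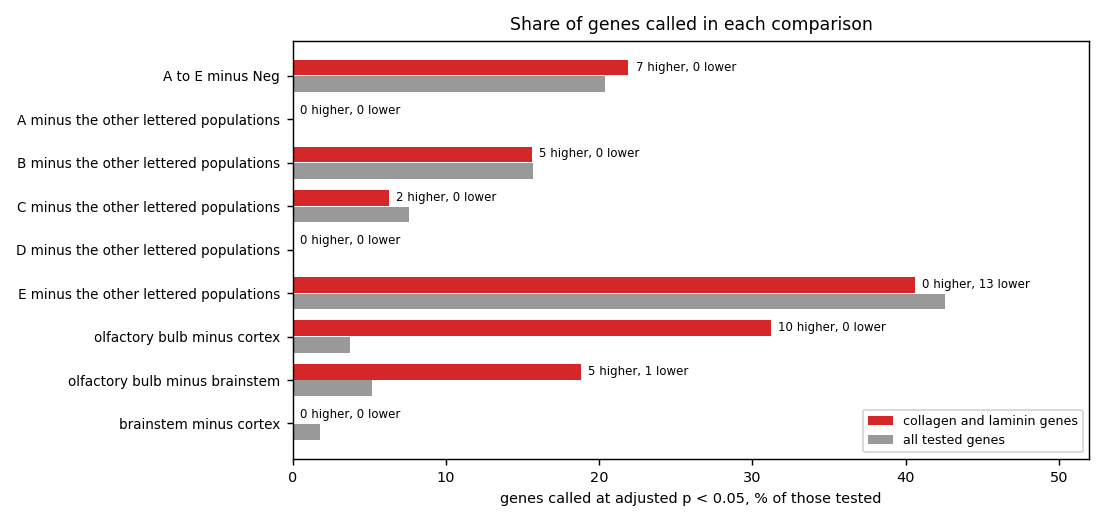
Share of tested genes called in each comparison, in percent, for the 32 collagen and laminin genes and for all 13574 tested genes. The share of collagen and laminin genes lies above that of all genes in both olfactory bulb comparisons, at 31.2% against 3.74% and 18.8% against 5.19%, and close to it in the comparisons of populations. Both olfactory bulb shares count Col5a2 and Col6a1, which passed the filter through the olfactory bulb alone.

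The promoters of 3 genes that were higher in the olfactory bulb are shown as examples of the sequence at their starts, with RefSeq's GRCm38.p6 windows from 250 bases before to 50 bases after the start, on the strand of the gene. Capitals mark the GC box GGGCGG and the CCAAT box CCAAT on either strand. The window of Col11a1 is chr3:114030290-114030589 on the plus strand, that of Col23a1 is chr11:51289670-51289969 on the plus strand, and that of Col6a1 is chr10:76725995-76726294 on the minus strand. RefSeq places the start of Col6a1 at 76726044, inside the GENCODE span given below, which ends at 76726168.
Col11a1: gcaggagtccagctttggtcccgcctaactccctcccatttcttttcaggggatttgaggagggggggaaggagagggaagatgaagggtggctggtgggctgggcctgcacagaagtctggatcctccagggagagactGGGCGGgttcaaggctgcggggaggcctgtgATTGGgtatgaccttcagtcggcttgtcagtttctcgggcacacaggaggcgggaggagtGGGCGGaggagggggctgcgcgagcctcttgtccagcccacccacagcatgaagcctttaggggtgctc
Col23a1: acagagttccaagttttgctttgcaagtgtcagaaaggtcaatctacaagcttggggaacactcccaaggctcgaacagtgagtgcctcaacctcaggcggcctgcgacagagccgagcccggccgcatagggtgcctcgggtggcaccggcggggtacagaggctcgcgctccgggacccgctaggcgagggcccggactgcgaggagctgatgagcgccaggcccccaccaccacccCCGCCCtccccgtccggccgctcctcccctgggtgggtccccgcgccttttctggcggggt
Col6a1: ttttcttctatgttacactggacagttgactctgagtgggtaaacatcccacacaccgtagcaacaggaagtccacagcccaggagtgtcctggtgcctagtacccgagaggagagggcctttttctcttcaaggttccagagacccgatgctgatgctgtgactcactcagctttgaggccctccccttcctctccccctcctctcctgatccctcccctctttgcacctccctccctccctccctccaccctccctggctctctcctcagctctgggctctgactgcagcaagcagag
The GC content was 62.3% for Col11a1, 67.7% for Col23a1 and 57.3% for Col6a1, beside a median of 52.7% over all promoters. Col11a1 had 2 GC boxes and 1 CCAAT box, Col23a1 had 1 GC box, and Col6a1 had neither. A GC box was found in 35.7% of all 32851 promoters and in 26 of 44 promoters of 40 collagen and laminin genes, or 59.1%, and a CCAAT box in 37.4% of all and 14 of the 44. The letters TATAAA were in 13.6% of all and 5 of the 44, and AACAAT, which SOX factors can bind, in 10.7% of all and 1 of the 44. A match is a run of letters and not a binding site.

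Among fibrillar collagens, Col11a1 showed the widest gap. The gene spans chromosome 3 from 114030540 to 114220718 on the plus strand (GRCm38). In the olfactory bulb its level was 8.95 and 7.69 FPKM in A, 12.8 and 19.3 in B, 6.55 and 5.97 in C, 5.85 and 22.8 in D and 14.2 and 5.28 in E. The brainstem libraries of A to E had a lowest level of 0, a median of 0.784 and a highest of 31.2 FPKM, and the cortex libraries a lowest of 0, a median of 0.261 and a highest of 9.29 FPKM. Every olfactory bulb library of A to E was above every brainstem and cortex library except brainstem D replicate 2 and cortex E replicate 2, without which the other regions reached 2.64 and 0.654 FPKM. The difference was 2.84 ± 0.40 (SE) against the cortex with an adjusted p of 3.77e-05, and 2.23 ± 0.40 against the brainstem with an adjusted p of 0.000811 in limma. Without both libraries it was 3.18 and 2.56. With transcripts at least 0.5 times as long as the longest alone, it was 0.53 against the cortex with an adjusted p of 0.0808, and 0.59 against the brainstem with an adjusted p of 0.0366. That setting leaves out the transcripts of 1185 and 3621 bases. In the Neg population of the olfactory bulb, Col11a1 was at 0.799 and 2.00 FPKM.

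Col5a2, a chain of collagen V, which sets the width of fibrils, lies on chromosome 1 from 45374321 to 45503282 on the minus strand. Its lowest, median and highest levels were 0.247, 1.55 and 4.28 FPKM in the olfactory bulb, 0, 0.0813 and 0.833 FPKM in the brainstem and 0, 0 and 0.664 FPKM in the cortex (n = 10 libraries each). The regions overlapped at their edges, where olfactory bulb C replicate 1 and E replicate 1 lay below brainstem D replicate 2. Col5a2 was higher in the olfactory bulb by 1.29 ± 0.20 against the cortex (limma adjusted p = 0.000111) and by 1.19 ± 0.20 against the brainstem (limma adjusted p = 0.000378).

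The filament collagen Col6a1, on chromosome 10 from 76708792 to 76726168 on the minus strand, had lowest, median and highest levels of 0, 2.01 and 5.63 FPKM in the olfactory bulb. The same levels were 0, 0.103 and 0.595 FPKM in the brainstem and 0, 0 and 0.715 FPKM in the cortex. Apart from olfactory bulb E replicate 1, which was at 0 and is the second shallowest library, all olfactory bulb libraries of A to E were above all those of the other regions. The difference was 1.47 ± 0.25 against the cortex (limma adjusted p = 0.000387) and 1.40 ± 0.25 against the brainstem (limma adjusted p = 0.000814). Col28a1, a collagen with domains like those of collagen VI, known in the mouse from sheaths of peripheral nerves, had lowest, median and highest levels of 0.159, 0.575 and 4.03 FPKM in the olfactory bulb, 0, 0.0441 and 1.45 FPKM in the brainstem and 0, 0 and 0.0547 FPKM in the cortex. All 10 olfactory bulb libraries were above all 10 cortex libraries, and the difference was 0.93 ± 0.21 against the cortex (limma adjusted p = 0.00696) and 0.72 ± 0.21 against the brainstem (limma adjusted p = 0.0398). The call against the cortex was lost without the 8 libraries of under 5000 genes, and the call against the brainstem was lost in 7 of the 11 settings other than leaving out a single library.

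The membrane collagen Col23a1 lies on chromosome 11 from 51289920 to 51583918 on the plus strand. Its level in the olfactory bulb was 9.24 and 6.73 FPKM in A, 11.4 and 5.04 in B, 4.68 and 3.23 in C, 6.15 and 6.10 in D and 0.788 and 0.301 in E. The lowest, median and highest levels were 0, 1.5 and 10.9 FPKM in the brainstem and 0, 0.255 and 9.17 FPKM in the cortex, and 2.55 and 0.905 FPKM were the highest there without brainstem D replicate 2 and cortex E replicate 2. The 8 olfactory bulb libraries of A to D were thus above all others but those 2, while the 2 of E were among the low ones. Col23a1 was higher in the olfactory bulb than in the cortex by 1.73 ± 0.34 (limma adjusted p = 0.00204). Against the brainstem the difference was 1.07 with an adjusted p of 0.0648, and it was called without both libraries.

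**Figure D3:**
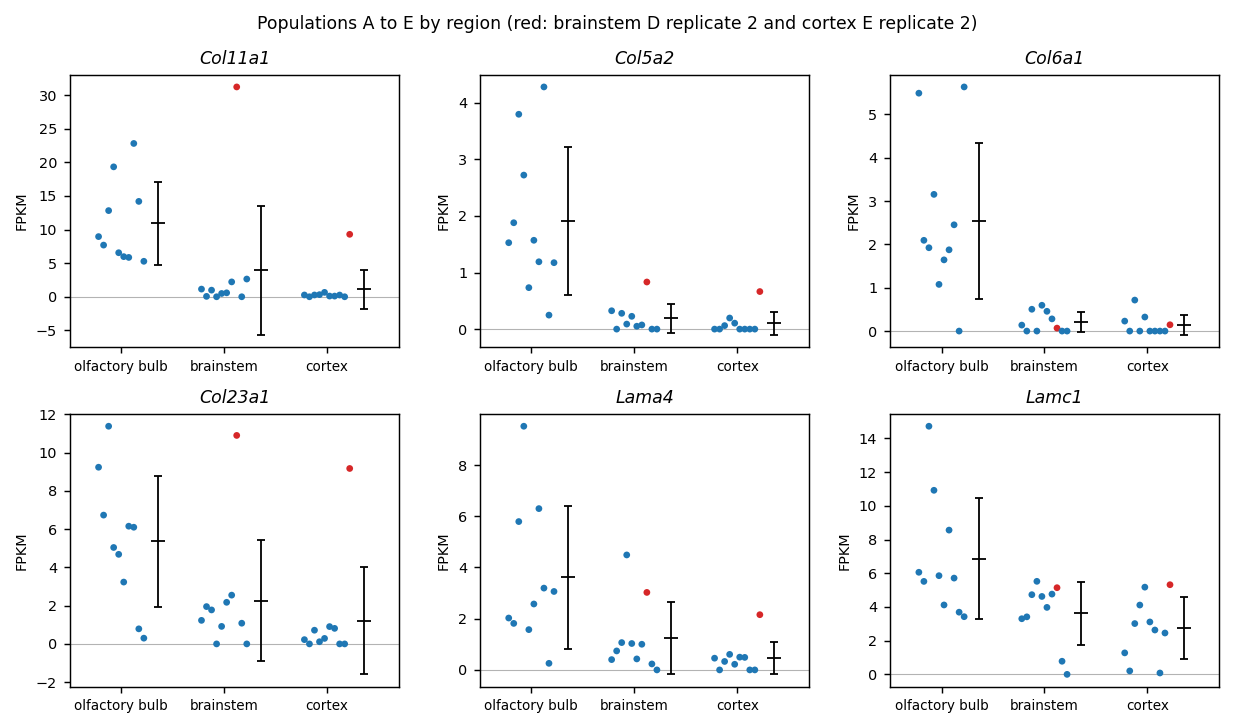
FPKM of collagen and laminin genes called between the olfactory bulb and another region, in the 10 libraries of populations A to E of each region. Points are libraries, with brainstem D replicate 2 and cortex E replicate 2 in red, and bars beside them are the mean ± SD; the olfactory bulb points of Col11a1 and Col6a1 lie above nearly all others.

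Among laminins, Lama4 and Lamc1 were higher in the olfactory bulb. Lama4, the alpha chain of endothelial basement membranes, lies on chromosome 10 from 38965515 to 39110188 on the plus strand. Its lowest, median and highest levels were 0.257, 2.82 and 9.51 FPKM in the olfactory bulb, 0, 0.872 and 4.49 FPKM in the brainstem and 0, 0.394 and 2.16 FPKM in the cortex. The regions overlapped, and the highest value in the olfactory bulb was in B replicate 2. The difference was 1.5 ± 0.28 against the cortex (limma adjusted p = 0.00122) and 1.01 ± 0.28 against the brainstem (limma adjusted p = 0.0322). Lamc1, on chromosome 1 from 153218922 to 153332786 on the minus strand, had lowest, median and highest levels of 3.42, 5.78 and 14.7 FPKM in the olfactory bulb, 0, 4.30 and 5.52 FPKM in the brainstem and 0.0813, 2.82 and 5.32 FPKM in the cortex. The olfactory bulb range overlapped that of the brainstem from 3.42 to 5.52 FPKM and that of the cortex from 3.42 to 5.32 FPKM. The difference against the cortex was called at 1.17 ± 0.28 (limma adjusted p = 0.0115), and that against the brainstem, 0.83, was not (adjusted p = 0.079). After rescaling every library to the same sum, the calls of Lamc1 against the cortex (adjusted p = 0.105) and of Lama4 against the brainstem (adjusted p = 0.127) were lost. Without brainstem D replicate 2 and cortex E replicate 2, the differences against the cortex were 1.37 for Col5a2, 1.49 for Col6a1, 1.67 for Lama4 and 1.26 for Lamc1, and those against the brainstem 1.27 for Col5a2, 1.37 for Col6a1 and 1.11 for Lama4.

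Of the fibril-associated collagens, 3 were higher in the olfactory bulb than in the cortex. Col16a1 had lowest, median and highest levels of 0, 6.76 and 14.5 FPKM in the olfactory bulb, 0, 2.34 and 8.98 FPKM in the brainstem and 0, 0.932 and 4.19 FPKM in the cortex, and was higher than in the cortex by 1.48 ± 0.39 (limma adjusted p = 0.0255). Without short transcripts this difference was 0.22 with an adjusted p of 0.719. Col12a1, a collagen of dense connective tissue, was higher than in the cortex by 0.68 ± 0.19 (limma adjusted p = 0.0392), with a median of 1.01 FPKM in the olfactory bulb and 0.104 FPKM in the cortex. For Col9a2 the difference was 0.60 ± 0.17 (limma adjusted p = 0.0389), with medians of 0.593 and 0 FPKM. Each of these 3 calls was lost in at least 5 of the 11 settings other than leaving out a library. The opposite direction was seen for Col8a1, a network collagen of vessels and of the cornea, whose lowest, median and highest levels were 0, 0.045 and 0.86 FPKM in the olfactory bulb and 0, 2.00 and 5.01 FPKM in the brainstem. It was lower in the olfactory bulb by 0.96 (log2 difference -0.96 ± 0.27, limma adjusted p = 0.0297), and the call was lost in 6 of the 11 settings.

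**Figure D4:**
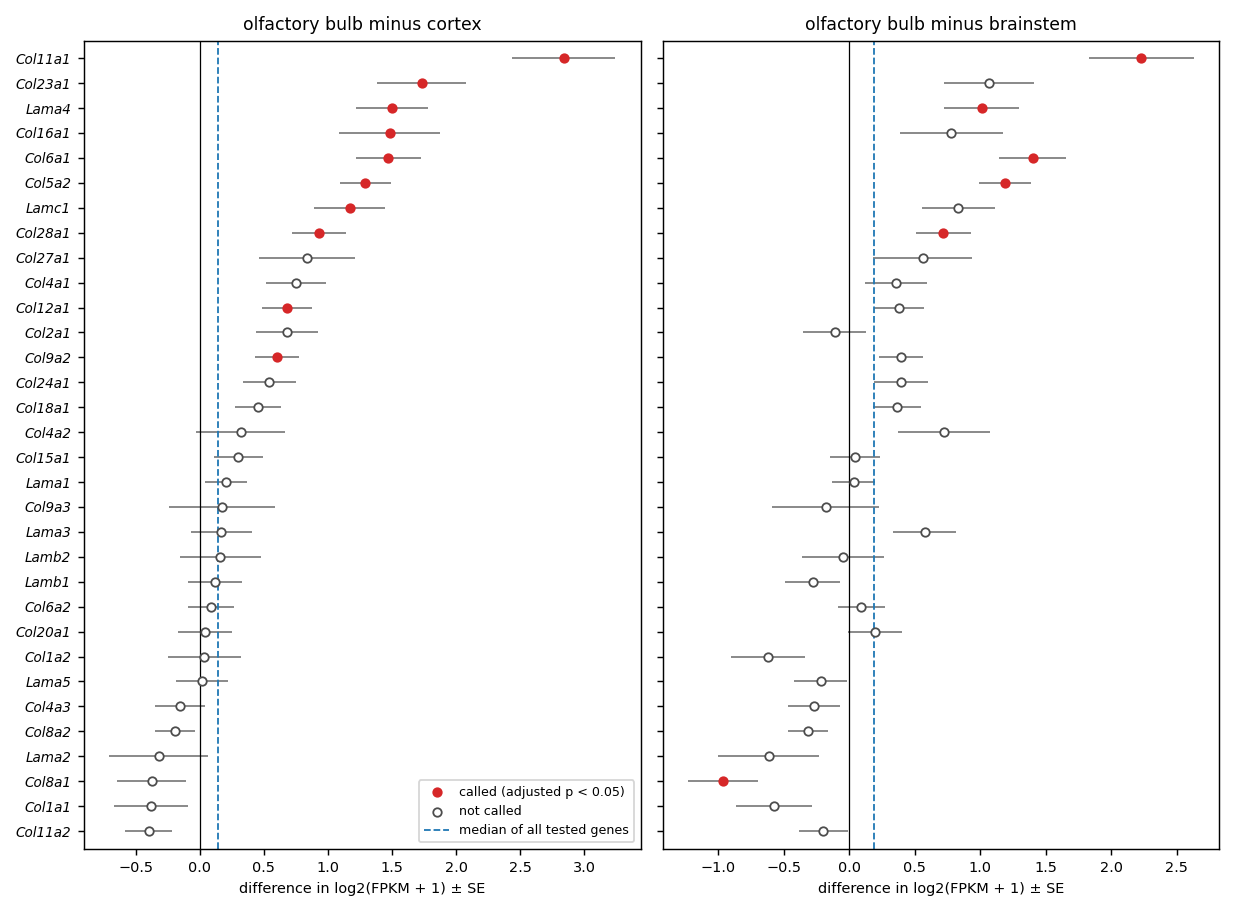
Log2 differences of the tested collagen and laminin genes between the olfactory bulb and the cortex and between the olfactory bulb and the brainstem, with standard errors and the median of all tested genes as a dashed line. Filled points passed an adjusted p of 0.05; Col11a1 is the farthest to the right in both panels at 2.84 and 2.23, and Col8a1 at -0.96 is the only called gene left of 0.

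Markers of olfactory ensheathing glia moved with these genes. Their summed level was lowest 728, median 2760 and highest 4320 FPKM in the olfactory bulb, 258, 606 and 4860 FPKM in the brainstem and 122, 280 and 2480 FPKM in the cortex. Of the 10 markers, 8 were called higher than in the cortex and 4 higher than in the brainstem, and 7 against the brainstem without brainstem D replicate 2 and cortex E replicate 2. Those libraries were set apart by genes such as Npy, which is itself among the 10 markers. The rise from 4 to 7 thus follows in part from that choice and adds no separate evidence. Between 0 and 2 of the 10 were at 0 in an olfactory bulb library and between 0 and 7 in a library of either other region, where Npy, Ngfr and Frzb were among those at 0. Among its genes, Vtn is also on the list of mural cells and Fbln2 on that of the matrix partners below. Of 12 endothelial markers none was higher in the olfactory bulb than in either region, and their sums had medians of 37.6 FPKM in the olfactory bulb, 50.6 FPKM in the brainstem and 44.0 FPKM in the cortex. Of the endothelial markers 1 was lower than in the brainstem. Of 11 mural markers 1, Vtn, was higher than in the cortex, and 2 were lower than in the brainstem. Of 9 fibroblast markers none was higher, and 1 was lower than in the cortex. Against the brainstem 6 of 8 oligodendrocyte markers were lower, and of 10 neuron markers 6 were higher and 1 was lower. Against the cortex 1 oligodendrocyte marker was lower and 2 neuron markers were higher. Of 7 choroid plexus markers, 5 were lower and 1 was higher than in the brainstem (median difference -1.86), and 3 were lower and 1 was higher than in the cortex (median difference -1.42). The part of ensheathing glia in the collagen and laminin differences was not tested.

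Between the brainstem and the cortex, none of the 32 genes was called in limma, where 1.75% of all tested genes were, 0.486% higher and 1.27% lower, and 3 of the 32 had an unadjusted p under 0.05. The median difference was 0.22, beside -0.03 for all genes. The test for a population difference that depends on region called none of the 32 genes either, and 0.0147% of all tested genes. Here 2 of the 32 had an unadjusted p under 0.05, and the smallest adjusted p was 0.659, for Col23a1.

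Against Neg, 7 collagen and laminin genes were higher in populations A to E and none was lower, or 21.9% of the 32, near the 20.4% of all tested genes, 20.2% of which were higher and 0.14% lower. The median difference of the 32 was 0.43, below the 0.50 of all genes, so the count is no result about these genes in particular. All 12 markers of astrocytes were also higher in A to E, as were 5 of 7 for choroid plexus, 5 of 10 for ensheathing glia, 3 of 6 for oligodendrocyte precursors, 3 of 12 for endothelium, 1 of 9 for fibroblasts, 1 of 10 for microglia and 1 of 8 for oligodendrocytes, where 1 of the 8 was lower. Their part in the differences was not tested. The 7 genes were Col9a3, Col11a1, Col16a1, Lamb2, Lamc1, Col1a2 and Col4a1. After quantile normalization, which brought the all-gene median to 0.00, and after rescaling, only Col9a3 was called. Single Neg libraries moved the count. Leaving out cortex Neg replicate 2 gave 0, leaving out brainstem Neg replicate 2 gave 1, leaving out olfactory bulb Neg replicate 1 gave 2, and leaving out brainstem Neg replicate 1 gave 3.

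Col9a3, on chromosome 2 from 180597790 to 180622189 on the plus strand, had lowest, median and highest levels of 0, 3.57 and 24.1 FPKM in A to E (n = 30) and 0, 0.188 and 0.967 FPKM in Neg (n = 6). All libraries of A, B and C except cortex A replicate 2 were above every Neg library, whereas E stayed between 0.0648 and 1.98 FPKM. In D, replicate 1 of the olfactory bulb, cortex and brainstem was above Neg at 5.58, 7.22 and 2.62 FPKM. Replicate 2 of these regions lay within the Neg range at 0.0858, 0 and 0.133 FPKM. The difference was 1.60 ± 0.41 (limma adjusted p = 0.00927). Lamb2, the beta chain of laminins at synapses and around vessels, had a median of 0.213 and a highest level of 0.792 FPKM in Neg, and was higher in A to E by 1.19 ± 0.31 (limma adjusted p = 0.0106). Lamc1 had a lowest, median and highest level of 0, 4.11 and 14.7 FPKM in A to E and 0.0274, 1.23 and 3.09 FPKM in Neg, with a difference of 1.09 ± 0.28 (limma adjusted p = 0.00894). The differences were 1.31 ± 0.40 for Col11a1 (limma adjusted p = 0.0236), 1.24 ± 0.39 for Col16a1 (adjusted p = 0.0265) and 0.85 ± 0.28 for Col1a2, a chain of collagen I (adjusted p = 0.0332). Without short transcripts, that of Col11a1 was 0.22 with an adjusted p of 0.321 and that of Col16a1 was 0.31 with an adjusted p of 0.31.

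The main basement membrane collagen is built from Col4a1 and Col4a2, whose genes start 21 bases apart on opposite strands of chromosome 8. Col4a1 runs from 11198423 to 11312826 on the minus strand and Col4a2 from 11312805 to 11449287 on the plus strand. The windows at their starts overlap by 78 bases and are shown because both genes start in this one stretch. That of Col4a1 is chr8:11312777-11313076 on the minus strand and that of Col4a2 is chr8:11312555-11312854 on the plus strand (RefSeq, GRCm38.p6), with the same motifs in capitals.
Col4a1: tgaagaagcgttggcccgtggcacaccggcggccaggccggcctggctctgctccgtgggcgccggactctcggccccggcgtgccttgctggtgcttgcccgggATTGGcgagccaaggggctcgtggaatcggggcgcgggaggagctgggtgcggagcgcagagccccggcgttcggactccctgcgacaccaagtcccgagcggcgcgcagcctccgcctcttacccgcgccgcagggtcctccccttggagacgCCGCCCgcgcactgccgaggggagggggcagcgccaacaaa
Col4a2: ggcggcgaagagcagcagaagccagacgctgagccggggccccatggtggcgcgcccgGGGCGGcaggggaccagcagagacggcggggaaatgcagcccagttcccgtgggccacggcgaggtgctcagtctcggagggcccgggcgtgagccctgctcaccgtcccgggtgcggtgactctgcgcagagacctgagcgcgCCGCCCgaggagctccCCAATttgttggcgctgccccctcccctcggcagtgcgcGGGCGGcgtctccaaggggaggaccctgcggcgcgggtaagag
Their GC contents were 74% and 73.7%, with 1 GC box for Col4a1 and 3 for Col4a2 and a CCAAT box in each. Libraries were not stranded, and reads where the genes overlap cannot be assigned to 1 of them by strand. Col4a1 had lowest, median and highest levels of 0, 1.19 and 4.33 FPKM in A to E and 0.089, 0.362 and 0.824 FPKM in Neg, and Col4a2 had 0, 1.82 and 6.49 FPKM in A to E and 0.109, 0.474 and 0.952 FPKM in Neg. Both were thus spread widely in A to E over a low Neg. The difference of Col4a1 was called at 0.76 ± 0.24 (limma adjusted p = 0.0252), and that of Col4a2, 0.72, was not (adjusted p = 0.124), and the difference between the genes was not tested.

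Population B had the highest median of summed levels, with collagens from 33.6 to 91.3 FPKM (median 57.0) and laminins from 16.2 to 31.9 FPKM (median 21.9) over its 6 libraries. The collagen sum was 6.67 to 65.6 FPKM in A, 24.9 to 74.0 in C, 1.78 to 70.4 in D, 3.79 to 34.8 in E and 3.19 to 20.0 in Neg, so ranges overlapped. All nuclear FPKM summed to between 23010 and 163100 per library, so these levels are not on an even scale. As a share of the nuclear FPKM assigned to genes, collagens and laminins together held 0.0455% to 0.119% in B and 0.00527% to 0.123% in D, where the share was highest. The B libraries were also the deepest, at 2.72 to 4.08 against at most 2.37 in all others. Against the mean of the other 4 lettered populations, 5 of the 32 genes were higher in B and none was lower, or 15.6%, near the 15.7% of all tested genes, 15.4% of which were higher and 0.361% lower. Col27a1, on chromosome 4 from 63214004 to 63334991 on the plus strand, had 11.5 and 9.07 FPKM in the olfactory bulb, 10.7 and 9.96 in the brainstem and 7.03 and 18.9 in the cortex. The other 24 lettered libraries had a lowest, median and highest level of 0, 3.02 and 13.5 FPKM. Only olfactory bulb A replicate 2 and olfactory bulb D replicate 2 reached the range of B. The difference was 1.85 ± 0.39 (limma adjusted p = 0.00125). Lamb2 was narrow in B, from 4.37 to 5.87 FPKM with a mean of 5.06 ± 0.54 (SD, n = 6), against a lowest, median and highest level of 0, 1.66 and 9.22 FPKM in the other 24, of which brainstem C replicate 1 was above all of B. Its difference was 1.36 ± 0.32 (limma adjusted p = 0.0041).

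Col15a1, a collagen at the rim of basement membranes, ranged from 0.355 to 2.53 FPKM in B, against 0 to 1.41 FPKM in the others, a difference of 0.85 ± 0.19 (limma adjusted p = 0.00302). Lamc1 was higher in B by 0.83 ± 0.28 (adjusted p = 0.0446) and Col12a1 by 0.60 ± 0.20 (adjusted p = 0.0333), with overlapping ranges for both. Markers of microglia moved with B. All 10 were called higher there, with sums from 717 to 1230 FPKM in B, where no marker was at 0, against 4.38 to 557 FPKM in the other lettered populations. Of other lists, 6 of 12 astrocyte, 3 of 12 endothelial, 4 of 11 mural, 4 of 6 oligodendrocyte precursor, 3 of 8 oligodendrocyte, 2 of 10 ensheathing glia and 1 of 9 fibroblast markers were higher in B, and 4 of 10 neuron and 1 of 8 oligodendrocyte markers were lower. Their part in the differences of B was not tested. All D and E libraries, cortex A replicate 2, brainstem A replicate 2 and brainstem B replicate 2 are in the second series of title numbers. Only the groups cortex A, brainstem A and brainstem B hold both series, so a term for the series is estimated from them alone. With that term the count in B was 1, Col15a1. It was also 1 after quantile normalization, when Col27a1 was called, 0 after rescaling, and 3 without cortex B replicate 1 or without cortex B replicate 2.

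**Figure D5:**
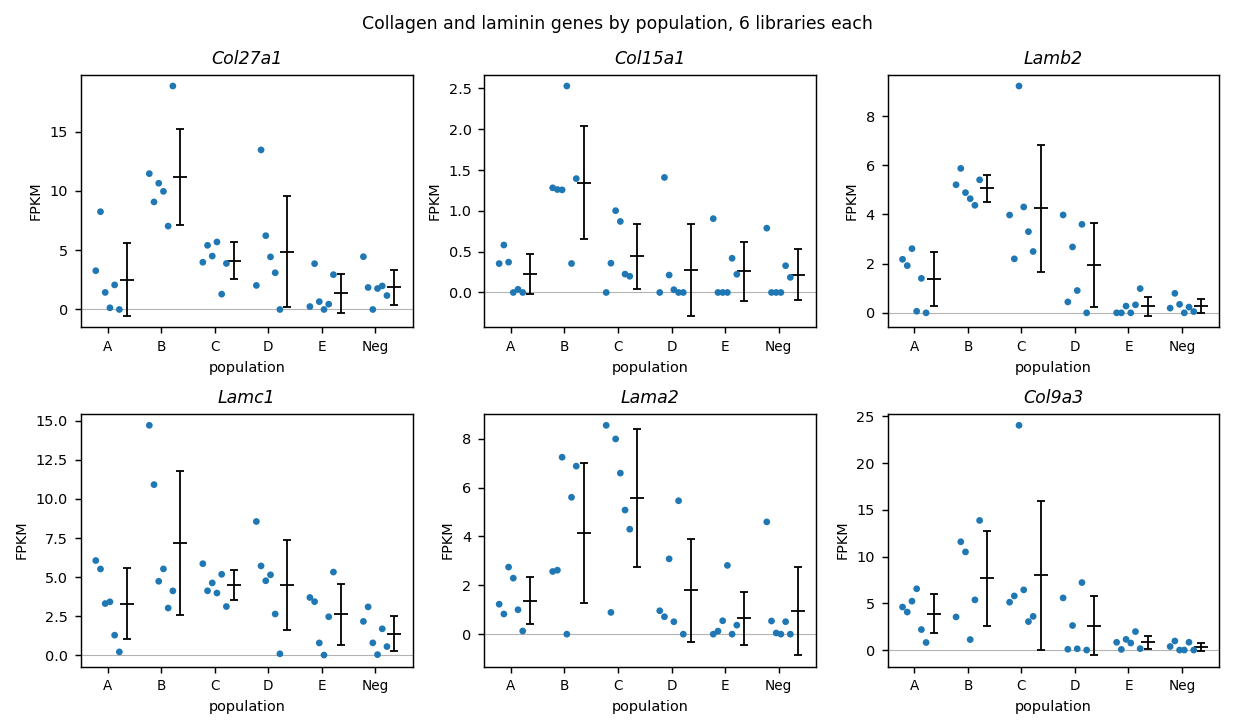
FPKM of collagen and laminin genes called in a comparison of populations, per library, by population with Neg at the right. Points are the 6 libraries of a population and bars beside them are the mean ± SD; Col27a1 lies between 7.03 and 18.9 FPKM in B, and Lamb2 stays under 1 FPKM in all E and Neg libraries.

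In population C, 2 of the 32 genes were higher than in the other lettered populations, or 6.25%, near the 7.61% of all tested genes, 7.6% of which were higher and 0.00737% lower. Both were laminins. Lama2, the alpha chain of laminins in muscle and around brain vessels, had a lowest, median and highest level of 0.889, 5.83 and 8.54 FPKM in C and 0, 0.978 and 7.24 FPKM in the others. Lamb1, the beta chain of most early laminins, had 0.536, 0.891 and 4.31 FPKM in C and 0, 0.212 and 1.68 FPKM in the others. The ranges overlapped for both genes, and for Lama2 olfactory bulb C replicate 2, the lowest of C, was below the median of the other libraries. The differences were 1.32 ± 0.39 for Lama2 (limma adjusted p = 0.0418) and 0.71 ± 0.22 for Lamb1 (limma adjusted p = 0.0439). Of the markers, 9 of 12 for astrocytes, 4 of 9 for fibroblasts, 3 of 6 for oligodendrocyte precursors, 2 of 4 for ependymal cells, 3 of 7 for choroid plexus, 3 of 10 for microglia and 2 of 11 for mural cells were higher in C. The part of these cells was not tested. Neither call held under rescaling or quantile normalization, nor without short transcripts, where the differences were 0.68 for Lama2 (adjusted p = 0.142) and 0.63 for Lamb1 (adjusted p = 0.0551), and the count ran from 0 to 7 when single libraries were left out, 24 of which changed it.

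Population E had 13 of the 32 genes lower and none higher than in the other lettered populations, or 40.6%, near the 42.6% of all tested genes, 42.5% of which were lower and 0.103% higher. The median of the 32 was -0.48, beside -0.66 for all genes. Lamb2 was at 0 to 0.985 FPKM in E, with a mean of 0.264 ± 0.383 (SD, n = 6), against a lowest, median and highest level of 0, 2.99 and 9.22 FPKM in the other lettered populations. No E library reached the range of B or C, and the difference was -1.52 ± 0.32 (limma adjusted p = 0.00102). Col9a3 had a median of 0.789 FPKM in E and 4.86 FPKM in the others, with a difference of -1.52 ± 0.42 (limma adjusted p = 0.00669). Col27a1 had a median of 0.555 FPKM in E, with a difference of -1.37 ± 0.39 (limma adjusted p = 0.00749). Both collagen IV chains were among the 13, at -1.15 ± 0.36 for Col4a2 (adjusted p = 0.0128) and -0.91 ± 0.24 for Col4a1 (adjusted p = 0.00529). The others were Col16a1, Lama2, Col1a2, Col8a1, Lamc1, Lama3, Col18a1 and Col6a2, with differences between -1.26 for Col16a1 and -0.47 for Col6a2. Without short transcripts that of Col16a1 was -0.41 with an adjusted p of 0.155. Lama3, Col18a1, Col6a2 and Col8a1 were each at 0 in 5 of the 6 E libraries, and the values of Lamc1, Col4a1 and Col18a1 turned to the other direction, uncalled, after quantile normalization.

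The 2 shallowest libraries belong to E, as do 3 of the 8 libraries of under 5000 genes, and all E libraries are in the second series of numbers in the titles, which is not stated to be a batch. Without both shallow libraries, 3 genes were lower and 1 was higher in E. None was called after quantile normalization, or when the fit held a term for the title series. That term is estimated from cortex A, brainstem A and brainstem B alone, as no E group holds both series. The count was 6 without olfactory bulb E replicate 1, 7 without cortex E replicate 1 and 8 without brainstem E replicate 2. Of the markers, all 10 for microglia, 11 of 12 for astrocytes, 9 of 12 for endothelium, 6 of 6 for oligodendrocyte precursors, 7 of 7 for choroid plexus, 6 of 9 for fibroblasts, 5 of 11 for mural cells, 5 of 5 for blood, 3 of 4 for ependymal cells, 3 of 10 for ensheathing glia, 2 of 8 for oligodendrocytes and 1 of 10 for neurons were lower in E, and the endothelial marker Esam was at 0 in all 6 E libraries. Their part in the differences of E was not tested.

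In populations A and D no collagen or laminin gene was called against the other lettered populations in limma, where 0% of all tested genes were called in A and 0.103% in D, 0.0295% higher and 0.0737% lower. At an unadjusted p under 0.05, 2 of the 32 genes passed in A and 3 in D. The medians of the 32 were -0.13 in A and 0.01 in D, beside -0.05 and -0.09 for all genes. In D, 1 gene was called without olfactory bulb D replicate 2 or without brainstem D replicate 1.

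Genes that work with collagens and laminins were read from lists chosen by function. Their counts stand against the shares of all tested genes called, which were 20.4% for A to E against Neg, 15.7% for B, 7.61% for C, 42.6% for E, 3.74% for the olfactory bulb against the cortex and 5.19% against the brainstem. Between the olfactory bulb and the cortex the median difference was 0.63 for basement membrane partners, 0.24 for collagen processing genes, 0.155 for receptors and 0.28 for degradation genes, beside 0.14 for all tested genes. Of 12 tested basement membrane partners, 4 were higher in the olfactory bulb than in the cortex and none was lower. They were Fbln2, an elastic fibre protein, at 2.68 ± 0.37 (limma adjusted p = 2.88e-05), Nid1, which links laminin to collagen IV, at 2.58 ± 0.42 (adjusted p = 0.000256), Vtn, an adhesion protein, at 2.33 ± 0.53 (adjusted p = 0.00801), and Smoc1 at 1.09 ± 0.31 (adjusted p = 0.0369). Against the brainstem only Fbln2 was higher, at 2.01 ± 0.37. Fbln2 and Vtn also stand in the ensheathing glia list. Sparc, a collagen-binding protein of glia, was higher in the brainstem than in the cortex, at 1.81, and was higher in A to E than in Neg at 1.67 ± 0.39, with 4 other partners. In B 3 partners were higher and in E 9 were lower, and the median difference of the 12 was 0.93 in A to E against Neg, 0.85 in B and -1.15 in E.

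Of 28 tested genes of collagen processing, none was called between the olfactory bulb and the cortex. Against the brainstem 2 were higher, the prolyl hydroxylases P4ha3 at 1.52 and P4ha2 at 0.84, and 1 was lower, Pcolce2 at -1.22. Between populations, 8 were higher in A to E than in Neg, among them Ppib, Plod1 and the collagen chaperone Serpinh1 at 2.17, 1.45 and 1.39. In B 7 were higher, led by the lysyl hydroxylases Plod1 at 2.22 ± 0.30 (limma adjusted p = 5.41e-06) and Plod3 at 2.09, in C 1 was higher, and in E 13 were lower. The median difference of the 28 was 0.61 in A to E against Neg, 0.745 in B, 0.36 in C and -0.66 in E, beside 0.50, 0.35, 0.39 and -0.66 for all tested genes. After rescaling or quantile normalization 2 of the 28 were higher in A to E and 2 in B.

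Of 14 tested receptors, 2 were higher in the olfactory bulb than in the cortex, Adgrg1, a receptor for collagen III, at 2.16 ± 0.52 (limma adjusted p = 0.0123), and the collagen receptor kinase Ddr2 at 1.17 ± 0.23 (adjusted p = 0.00142). Ddr2 was also higher than in the brainstem, at 0.97. There Itga3 was lower in the olfactory bulb at -0.74, as was Mag, a myelin protein on the list, at -2.81. In the brainstem Mag was higher than in the cortex at 2.31, and so was Itgb4 at 1.55. Against Neg, 10 receptors were higher in A to E, among them the laminin receptor Dag1 at 2.59 ± 0.39. In B 8 were higher, led by Lair1, a collagen receptor of immune cells, at 2.31, and Ddr1 at 2.14, beside the microglia markers given above, and in E 9 were lower. The median difference of the receptors was 1.09 in A to E against Neg, 1.01 in B and -1.05 in E. After rescaling and after quantile normalization 1 receptor was higher in A to E. Of 10 tested genes of collagen degradation, 5 were higher in A to E than in Neg, among them the inhibitors Timp3 at 2.45 and Timp4 at 2.38. In B 3 were higher, including the collagen uptake receptor Mrc2 at 1.36, in C 1, Timp4 at 1.82, and in E 7 were lower, with medians of 0.965 in A to E, 0.78 in B, 0.39 in C and -1.05 in E, while none was called between the olfactory bulb and the cortex.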

How the data were processed

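RNA of 36 libraries was sequenced on an Illumina HiSeq 2500 after NuGEN Ovation V2 amplification, which is unstranded, per the labels' protocols. Per the submitters' processing notes, bcl2fastq 1.8.3, TopHat and Cufflinks were used with mm10; for TopHat and Cufflinks the version is not given in the sources used here. The authors deposited FPKM for 63241 transcripts, with Cufflinks' interval, coverage (a signal) and length, per the file headers. Depth was read from deposited coverage over FPKM; the interval near 10 FPKM had a half-width of 10.1% to 16.5% of the value, but 35.2% for olfactory bulb E replicate 1 and 63.0% for brainstem E replicate 1, which covers counting and assignment error only.

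Transcripts were assigned to GENCODE vM21 genes (GRCm38) by position, with an overlap score of at least 0.5 and a lead of 0.1, or to the only protein-coding gene within that lead; 83.1% were assigned and summed per gene. Paralogous chains share reads that Cufflinks divides by estimation. Genes with 1 FPKM in 2 libraries were tested with limma 3.58.1 (R 4.3.3) on log2(FPKM + 1), which understates changes of low genes, with 18 group means, a variance trend and 18 residual degrees of freedom, two-sided. The scripts were tested on simulated data. Regions were compared over A to E, and populations over regions, weighted equally; comparisons between regions, and between populations, share libraries. Genes called, or among the 12 highest means, are given with their values. Members, marker and function lists were chosen with earlier results of these data known. Not every gene shared between marker lists is reported here. Alternatives were rescaling to 1000000, quantile normalization, a pseudocount of 0.1, no filter, the highest transcript per gene, a term for the number series, and leaving out libraries; adding transcripts inside a gene and using long transcripts alone were chosen after seeing the data.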

Additional observations from a re-analysis of the deposited data

How the results depend on the processing

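Of 43 calls of a collagen or laminin gene in a comparison, 7 held in all 47 other settings: Col11a1 against the brainstem, Col23a1 against the cortex, Lama4 against the cortex, and Col5a2 and Col6a1 against both. Col5a2 and Col6a1 reached 1 FPKM in olfactory bulb libraries alone, so both passed the filter only through the region where they were then called higher. In 3 calls the direction changed, all in E after quantile normalization, where the log2 differences were 0.0605 for Col18a1 (adjusted p = 0.841), 0.157 for Col4a1 (0.713) and 0.103 for Lamc1 (0.831), uncalled. The cause was not tested.

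Counts of called genes changed as follows. A to E minus Neg, 7 as reported, gave 1 after rescaling, 1 after quantile normalization, 12 with the term for the number series and 0 without the 8 libraries under 5000 genes. B, 5 as reported, gave 0 rescaled, 1 quantile normalized, 3 with a pseudocount of 0.1, 8 of 55 without a filter, 2 with the highest transcript, 1 with the series term and 3 without the 8 libraries. C, 2 as reported, gave 0 in 7 settings (rescaled, quantile normalized, pseudocount, highest transcript, series term, without both shallow E libraries, without the 8 libraries) and with long transcripts, and 1 without a filter, without brainstem D replicate 2 and cortex E replicate 2, and with transcripts inside genes. E, 13 as reported, gave 7 rescaled, 0 quantile normalized, 7 with the highest transcript, 0 with the series term, 4 without both shallow E libraries and 2 without the 8 libraries, where brainstem E was lost and the interaction could not be fitted. Brainstem minus cortex gave 1 rescaled and 1 with the pseudocount. Leaving out single libraries gave 0 to 10 for A to E minus Neg, 3 to 7 for B, 0 to 7 for C, 0 to 1 for D, 6 to 16 for E, 7 to 12 against the cortex and 3 to 7 against the brainstem for the olfactory bulb, 0 to 1 for brainstem minus cortex, and 0 throughout for A and the interaction. The olfactory bulb count against the brainstem was 3 without olfactory bulb A replicate 1, brainstem A replicate 2, brainstem D replicate 1 or olfactory bulb E replicate 2. Of the 16 olfactory bulb calls, 7 held in all 47 other settings. Against the brainstem, Col28a1 was lost in 24 of the 47, Lama4 in 16 and Col8a1 in 15. Against the cortex, Col9a2 was lost in 21, Col12a1 in 19, Col16a1 in 14, Lamc1 in 2, and Col11a1 and Col28a1 in 1 each. No paired analysis was possible because the labels carry no replicate numbers. Levels near 0 in shallow libraries limit what can be seen.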
